A study of Mus musculus with 6 samples.

Results

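The peaks described here lie around the genes that carry the STING and interferon response. They were chosen by position: every listed CTCF peak that overlapped 1 of 5 windows of the mm39 mouse genome was taken. The windows were set around Sting1 (chromosome 18 from 35750000 to 36000000), Tbk1 (chromosome 10 from 121250000 to 121550000), Irf3 (chromosome 7 from 44530000 to 44780000), Ifnb1 with the type I interferon genes (chromosome 4 from 88300000 to 88900000) and Ifnar2, Ifnar1 and Ifngr2 (chromosome 16 from 91050000 to 91450000). They held 339 of the 172581 peaks in 6 lists, 51 to 59 per list. All peaks of the 6 lists were merged wherever they overlapped by 1 bp, and 117 of the 94951 regions so formed overlapped a window. A region at the edge of a window can thus include a peak that lies outside it.

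CTCF was profiled by CUT&RUN, in which an antibody against a chromatin protein brings a nuclease to it and the DNA released around the protein is sequenced. The cells were regulatory T cells from mouse thymus, with 3 libraries of wild-type genotype (WT) and 3 of Cgas knockout genotype (Cgas_KO). The knockout removes cGAS, the enzyme that senses DNA in the cytosol. The knockout allele, how the cells were isolated, the age of the mice and whether the libraries of a group came from separate animals are not stated in the labels. The p-values below therefore measure only the spread between these libraries, which may be technical.

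In the cGAS-STING pathway, cGAS makes a cyclic dinucleotide when it meets DNA, and this second messenger activates STING (Sting1) on the endoplasmic reticulum. STING recruits the kinase TBK1 (Tbk1), which phosphorylates the transcription factor IRF3 (Irf3), and IRF3 enters the nucleus and switches on interferon-beta (Ifnb1). Secreted type I interferons then bind the receptor made of IFNAR1 and IFNAR2 (Ifnar1, Ifnar2), while IFNGR2 (Ifngr2) is a chain of the interferon-gamma receptor. CTCF binds DNA through zinc fingers and, with cohesin, anchors chromatin loops.

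The gene table used here is of GRCm38.p6, not of the build of the lists, so it served only for names and for gene order, and no peak was assigned to a promoter, exon or intron. In that order Sting1 lies between 1700066B19Rik and Ube2d2a, Tbk1 between Rassf3 and Xpot, and Irf3 between Bcl2l12 and Scaf1. Ifnb1 follows Hacd4 and opens a run of 33 protein-coding genes that ends before Mtap and includes 13 Ifna genes. Ifnar2, Il10rb (a chain of the interleukin-10 receptor), Ifnar1 and Ifngr2 follow one another without another protein-coding gene between them. Genotype labels were not checked at the Cgas locus, which was not analysed here.

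RefSeq gives a promoter sequence in GRCm38.p6 for 6 of the 7 genes, namely Tbk1, Irf3, Ifnb1, Ifnar2, Ifnar1 and Ifngr2. The Ifnb1 promoter is printed because this gene is the endpoint of the signalling chain. The 250 bases before its start, on the minus strand of chromosome 4, are given with GGGAAATTC, the start of its known NF-kappaB site, in capitals.
Ifnb1: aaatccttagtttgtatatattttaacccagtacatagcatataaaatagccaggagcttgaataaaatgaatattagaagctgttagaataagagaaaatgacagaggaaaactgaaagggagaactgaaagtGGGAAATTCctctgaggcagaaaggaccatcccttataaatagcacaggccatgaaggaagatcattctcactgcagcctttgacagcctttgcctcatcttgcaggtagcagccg
GGGAAATTC was found in 0.253% of the 32851 promoters of the table, searched on both strands over 250 bases before to 50 after a start. The longer part of the CTCF consensus that was searched, CNAGGNGGC, was found in 8.38% of all promoters and among the 6 in those of Ifnar2 and Ifngr2. The shorter AGGGGGC, whose matches can overlap those of the longer one, was found in 10.6% of all promoters and among the 6 in that of Ifnar1.

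The run of genes between Hacd4 and Mtap also includes promoters that are nearly identical in sequence. Of the 32 promoters in the table between Hacd4 and Mtap, 12 matched that of another gene of the run at 90% or more of 300 positions, compared without gaps. These were Ifnz (interferon zeta), Gm13272, Gm13276, Gm13277, Gm13278, Gm13279, Gm13283, Gm13285, Gm13287, Gm13288, Gm13289 and Gm13290. The promoter of Ifnb1 matched its best partner at 31.3% of positions. The 250 bases before the starts of Ifnz and Gm13278 are shown to make this visible, with the 1 base at which they differ in capitals. Both lie on the plus strand of chromosome 4.
Ifnz: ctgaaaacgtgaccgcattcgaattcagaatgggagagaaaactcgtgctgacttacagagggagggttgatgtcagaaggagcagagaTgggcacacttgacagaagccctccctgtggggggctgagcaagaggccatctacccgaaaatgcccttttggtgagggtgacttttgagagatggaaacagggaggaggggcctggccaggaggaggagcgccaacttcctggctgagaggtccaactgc
Gm13278: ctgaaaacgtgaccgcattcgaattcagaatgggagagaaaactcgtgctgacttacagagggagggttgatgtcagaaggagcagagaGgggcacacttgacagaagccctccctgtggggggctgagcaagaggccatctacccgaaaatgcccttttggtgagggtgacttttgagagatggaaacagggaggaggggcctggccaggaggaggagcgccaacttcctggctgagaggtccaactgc
How reads that match several places in the genome were placed is not stated in the labels, and its part in the heights of the interferon window was not tested.

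The lists held 27128 to 31707 peaks on chromosomes 1 to 19, X and Y, with a median width of 2569 bp in Cgas_KO replicate 3 and 3219 to 3607 bp in the other 5. Read depth is unknown. The height of a peak is its maximum signal as deposited by the authors. It was a whole multiple of 1 step in every list, and the step was worth 0.190 to 0.212 signal units in WT and 0.117 to 0.120 in Cgas_KO. Heights were therefore compared as percentiles within a list, where 100 is the tallest peak, and are also given in steps. The part of this gap between the genotypes in the results was not tested. Regions carry a number that runs along each window from its lower coordinate.

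**Figure D1:**
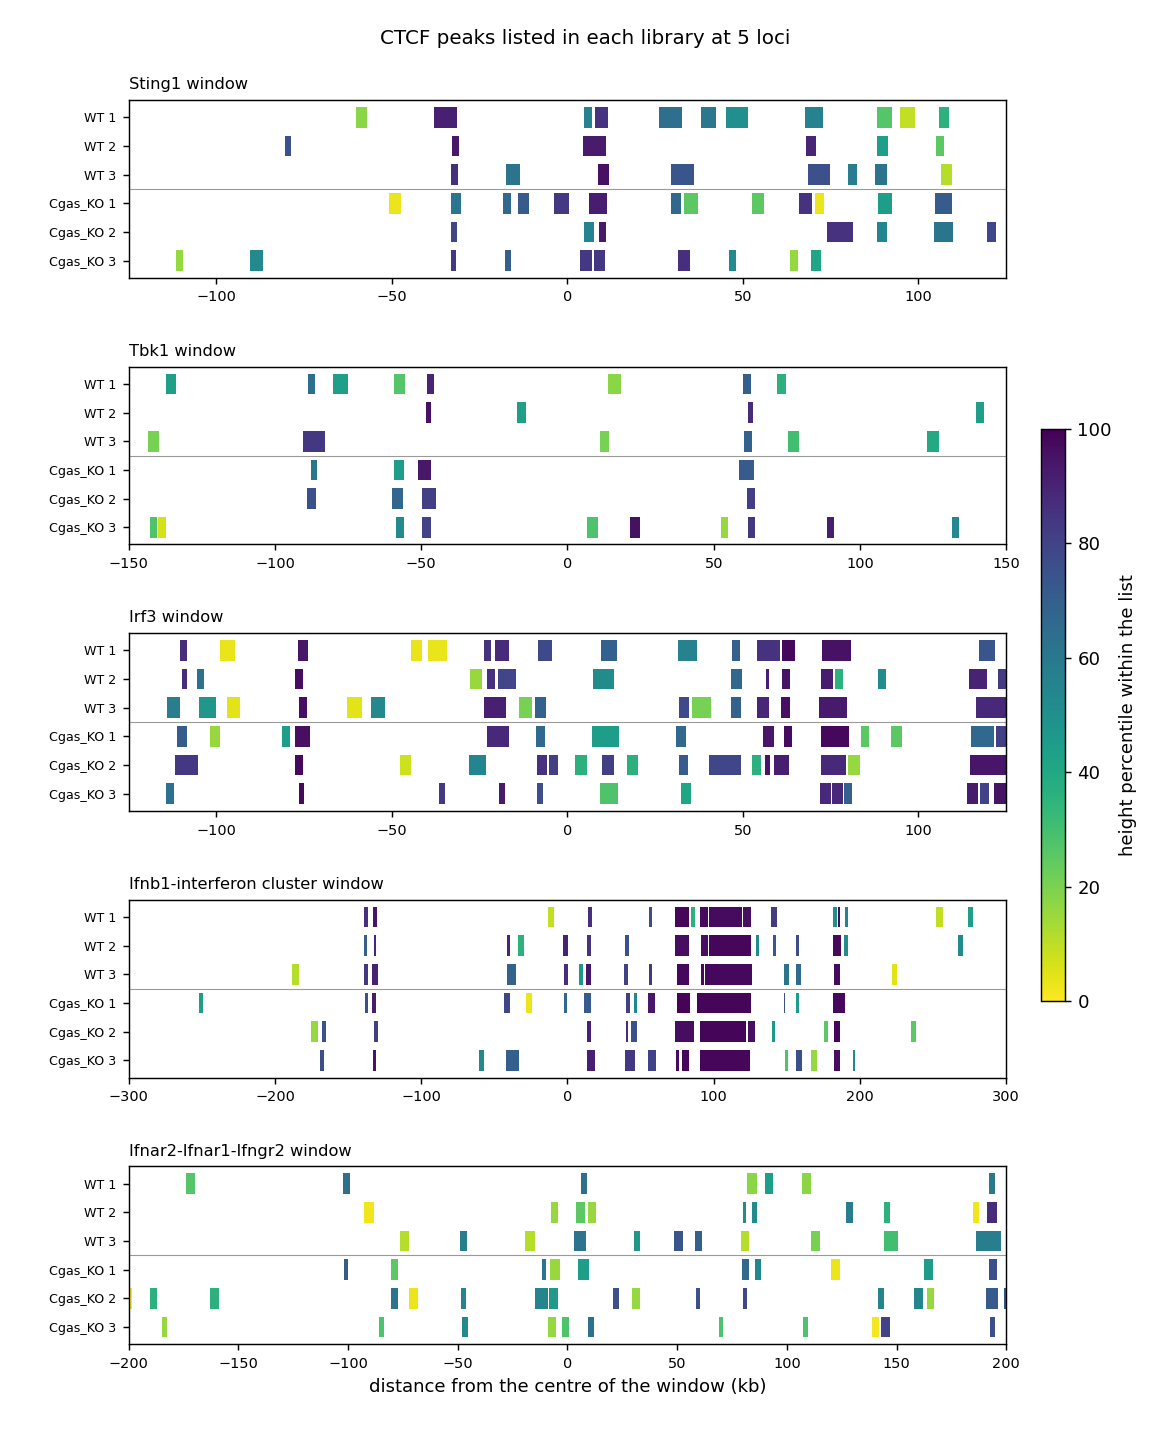
Peaks listed in each of the 6 libraries (rows) over the 5 windows, against the distance from the centre of the window in kb; the colour gives the height percentile of the peak within its list. The dark block right of the centre of the interferon window recurs in all 6 libraries, whereas the Ifnar2-Ifnar1-Ifngr2 window holds few dark peaks, none of them above percentile 90.

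Of the 117 regions, 16 were called in all 6 lists, or 13.7%, against 5.16% of all regions of the genome. There were 6 in the Irf3 window, 5 in the interferon window, 3 in the Sting1 window and 1 each in the Tbk1 and Ifnar2-Ifnar1-Ifngr2 windows. A further 63 of the 117 (53.8%) had a peak in 1 list only, against 69.9% over the genome.

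Of the 117 regions, 0 had a peak in every list of 1 genotype while lacking one in every list of the other, a class that holds 0.377% of all regions for WT and 0.33% for Cgas_KO. Called in 2 lists of a genotype and in 0 of the other were 2 regions for WT (1.71%, against 3.02% of all regions in 2 or 3 WT lists) and 4 for Cgas_KO (3.42%, against 3.26%). The WT ones were Tbk1 region 8 (chromosome 10 from 121411203 to 121418351, 10 steps in both lists) and Irf3 region 2 (chromosome 7 from 44556060 to 44561742, 8 steps in both). The tallest of the Cgas_KO ones was region 4 of the interferon window (chromosome 4 from 88430749 to 88434852), at percentiles 75.6 and 75.9 in replicates 2 and 3. The others were Ifnar2-Ifnar1-Ifngr2 regions 9, 28 and 30, each in replicates 1 and 2, at 10 to 17 steps. Region 30 crosses the upper end of its window, and its peak in replicate 1 lies wholly outside the window. These 6 were chosen after their values were seen and were not tested.

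Peaks, covered length and mean height percentile were compared between genotypes in each window, 15 two-sided exact permutation tests in all, whose smallest possible p is 0.1. The groups did not overlap in 1 of the 15, the number of peaks in the interferon window, and every Benjamini-Hochberg adjusted p was 1. The same was counted over genome tiles of 250, 300, 400 and 600 kb, the lengths of the windows. Peak counts did not overlap with Cgas_KO lower in 2.14%, 2.21%, 2.41% and 2.31% of tiles, and with Cgas_KO higher in 3.53%, 3.85%, 4.64% and 5.82%. Covered length did not overlap with Cgas_KO lower in 5.8%, 6.4%, 6.77% and 6.54%, and with Cgas_KO higher in 4.25%, 4.08%, 4.48% and 4.48%. Mean height percentile did not overlap with Cgas_KO lower in 6.94%, 7.06%, 6.75% and 6.35%, and with Cgas_KO higher in 5.09%, 5.2%, 6.06% and 6.4%.

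**Figure D2:**
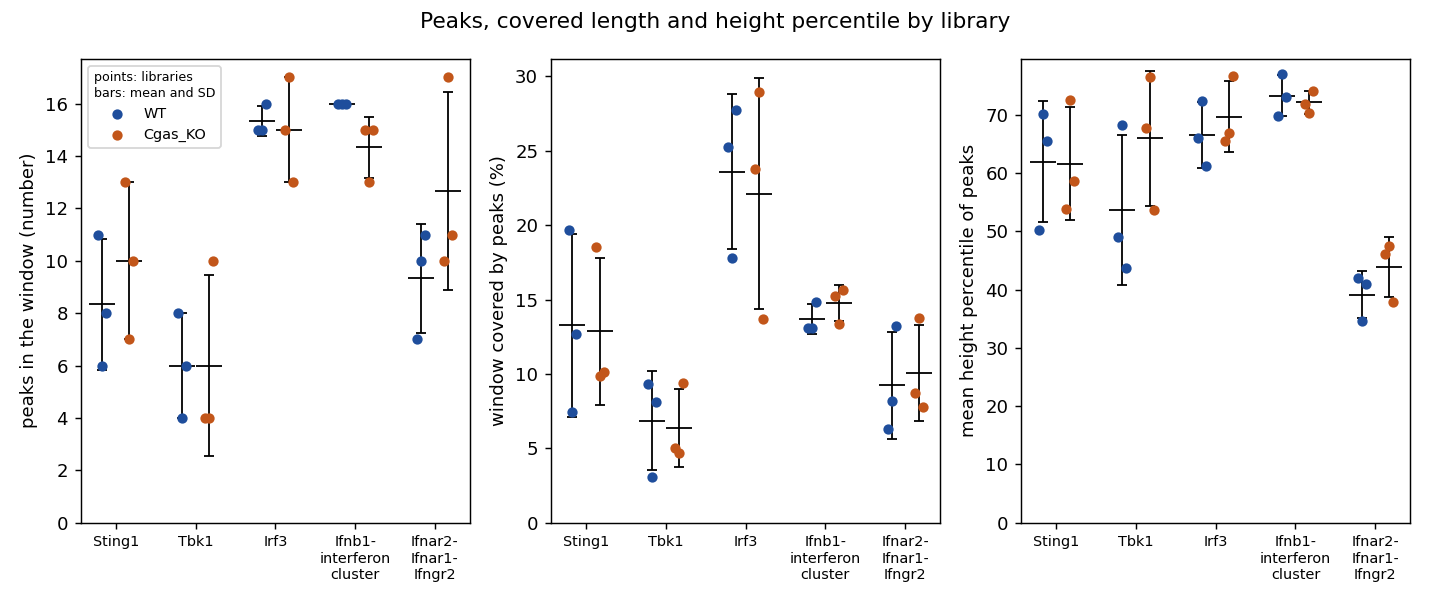
Number of peaks, percent of the window covered by peaks and mean height percentile of the peaks (vertical axes) in the 5 windows (horizontal axes); points are libraries, bars the mean and SD of 3 libraries per genotype. WT and Cgas_KO overlap in each panel and window except for the peak count of the interferon window, and the Ifnar2-Ifnar1-Ifngr2 window has the lowest mean percentiles.

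At Sting1, the gene of the adaptor that cGAS activates, there were 11, 6 and 8 peaks in WT replicates 1 to 3 and 13, 7 and 10 in Cgas_KO. The groups overlapped (8.33 ± 2.52 against 10 ± 3, SD, n = 3; p = 0.6 by exact permutation). Peaks took up 13.3% ± 6.15 of the window in the WT lists and 12.9% ± 4.94 in the Cgas_KO lists (SD, n = 3; p = 0.9 by exact permutation). The mean height percentile stood at 62.0 ± 10.4 for WT and at 61.6 ± 9.69 for Cgas_KO (SD, n = 3; p = 1 by exact permutation).

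Of the 16 regions called in all 6 lists, the one with the lowest limma p lay in this window. Sting1 region 6 (chromosome 18 from 35836917 to 35844663) held 1 peak in every list. The WT libraries reached 35, 36 and 28 steps and the Cgas_KO libraries 15, 19 and 16. As percentiles these were 91.1, 93.5 and 86 in WT and 60.6, 78.9 and 83.8 in Cgas_KO, so that every Cgas_KO library lay below every WT library. Over the genome, 6.76% of regions in all 6 lists had percentiles that did not overlap with Cgas_KO lower. The relative height of all 4896 regions called in all 6 lists was tested with limma on normal scores of the height ranks, and at this region the score was lower in Cgas_KO by a difference of -0.88 (SE 0.30). The unadjusted p of limma was 0.0219 and the adjusted p 0.424, so the difference did not pass. On log2 heights over the median height of the list's 4896 regions, the difference was -0.59 (SE 0.23, adjusted p of limma 0.208).

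Sting1 region 9 (chromosome 18 from 35878621 to 35886812) was the tallest of this window by mean percentile, at 91.3 ± 5.55 for WT and 89.7 ± 5.12 for Cgas_KO (SD, n = 3). The WT libraries reached 28, 34 and 51 steps and the Cgas_KO libraries 27, 29 and 16, and the percentiles overlapped. Sting1 region 15 (chromosome 18 from 35941091 to 35957444) ranged from 15 to 29 steps in WT and from 10 to 22 in Cgas_KO, at percentiles 56 to 89.6 and 41 to 85.7. Libraries of both genotypes thus sat high and low at this region. The maximum of the tallest peak lay near 35956135 in Cgas_KO replicate 2, and from 35943945 to 35946494 in the other lists. These heights are therefore not all of 1 site. Sting1 regions 16 and 18 were called in every list but that of Cgas_KO replicate 3. Region 18 (chromosome 18 from 35979486 to 35984971) reached 12, 10 and 9 steps in the WT lists, against 17 and 15 in those of Cgas_KO replicates 1 and 2. It is described after its values were seen.

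At Tbk1, the gene of the kinase that STING recruits, the lists held the fewest peaks of the 5 windows on average. There were 8, 4 and 6 in WT and 4, 4 and 10 in Cgas_KO, a mean of 6 in both groups (p = 1 by exact permutation, n = 3). Cgas_KO replicate 3, the list with the most and narrowest peaks, held the 10. The mean was nevertheless above that of 83.6% of the 8550 genome tiles of 300 kb with a peak, whose median was 2.33. Peaks took up 6.86% ± 3.32 of the window for WT and 6.38% ± 2.62 for Cgas_KO (SD, n = 3; p = 1 by exact permutation). The mean height percentile stood at 53.6 ± 12.9 for WT and at 65.9 ± 11.6 for Cgas_KO (SD, n = 3; p = 0.3 by exact permutation), with overlap. No peak of any list lay on the 43.4 kb from 121266229 to 121309586.

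Tbk1 region 11 (chromosome 10 from 121458754 to 121464277) was the 1 region of this window in all 6 lists. The WT libraries reached 19, 27 and 18 steps and the Cgas_KO libraries 17, 20 and 16. The percentiles, 75.3 ± 10.9 for WT and 79.0 ± 6.46 for Cgas_KO (SD, n = 3), overlapped (limma adjusted p = 0.930). Tbk1 region 5 (chromosome 10 from 121349004 to 121355135) was called in 5 lists, at 33 and 45 steps in WT replicates 1 and 2 and 30, 20 and 15 in Cgas_KO. It had no peak in the list of WT replicate 3, and is described after its values were seen.

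The Irf3 window, around the gene of the transcription factor at the end of the kinase cascade, had the densest peaks. WT lists held 15, 15 and 16 and Cgas_KO lists 15, 17 and 13 (15.3 ± 0.577 against 15 ± 2, SD, n = 3; p = 1 by exact permutation). The mean over the 6 lists, 15.2 peaks, was above that of 99.8% of the 10250 genome tiles of 250 kb with a peak, whose median was 1.83. Tiles include gene-poor DNA and were not matched to the window. Peaks took up 23.6% ± 5.19 of it in the WT lists and 22.1% ± 7.74 in the Cgas_KO lists (SD, n = 3; p = 0.7 by exact permutation). The mean height percentile, 66.5 ± 5.61 for WT and 69.7 ± 6.13 for Cgas_KO, overlapped (SD, n = 3; p = 0.6 by exact permutation).

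Irf3 region 4 (chromosome 7 from 44577296 to 44581587) was the tallest of this window among regions in all lists. The WT libraries reached 43, 50 and 53 steps and the Cgas_KO libraries 36, 48 and 31. Percentiles were 94.2, 96.6 and 96.3 in WT and 96.2, 98.0 and 97.5 in Cgas_KO, so the groups overlapped near the top of every list (limma adjusted p = 0.748). Irf3 region 17 (chromosome 7 from 44726777 to 44738483) came next, at 48, 33 and 39 steps in the WT lists and 45, 24 and 18 in the Cgas_KO lists. Its percentiles, 93.6 ± 1.64 and 91.7 ± 5.21 (SD, n = 3), overlapped too.

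The other Irf3 regions in all lists were 1, 9, 15 and 21. Region 1 (44540555 to 44555948) reached 15 to 30 steps in WT and 12 to 21 in Cgas_KO. Region 9 (44626959 to 44640348) reached 25 to 35 and 14 to 24 steps, and region 15 (44686042 to 44704840) 16 to 22 and 10 to 19. Region 21 (44768712 to 44780506) reached 21 to 31 and 20 to 31 steps. Percentiles overlapped at each of these regions, whose limma adjusted p-values were 0.764 to 0.881. The maxima of the tallest peaks lay up to 16329 bp apart between libraries at region 15 and up to 6706.5 bp apart at region 9. The heights compared there can thus come from different peaks of 1 merged region. Irf3 region 16 (chromosome 7 from 44707670 to 44719821) stood at 32 to 70 steps in 5 lists, percentiles 94.8 to 97.7. It was not called in Cgas_KO replicate 3, and is described after its values were seen.

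The window of Ifnb1 and the type I interferon genes held 16, 16 and 16 peaks in WT and 15, 13 and 15 in Cgas_KO. Every Cgas_KO list thus had fewer than every WT list (16 ± 0 against 14.3 ± 1.15, SD, n = 3; p = 0.1 by exact permutation, adjusted 1), which 2.31% of genome tiles of 600 kb also showed. These tiles were not matched to the window by number of peaks. Their median was 5 peaks per list, against a mean of 15.2 in the window. Counted as regions with a peak, a measure chosen after the data were examined, there were 11, 13 and 15 in WT and 14, 11 and 14 in Cgas_KO, which overlapped. The difference in peaks was thus not seen in regions, and it was 0 when the top 50% of peaks by total signal were kept. Region 17 was listed as 3, 2 and 2 peaks in WT and as 1, 2 and 1 in Cgas_KO. Region 24 was listed as 3, 2 and 1 peaks in WT and as 1, 1 and 1 in Cgas_KO. Other regions went the other way, among them region 14, with 0, 1 and 1 peaks in WT and 2, 2 and 1 in Cgas_KO. Peaks took up 13.7% ± 1.01 of the window in the WT lists and 14.7% ± 1.22 in the Cgas_KO lists (SD, n = 3; p = 0.2 by exact permutation).

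Peaks of this window were tall in both genotypes. The mean height percentile was 69.8, 76.9 and 73.0 in WT and 71.8, 70.4 and 74.1 in Cgas_KO, which overlapped (p = 0.7 by exact permutation, n = 3). The mean over the 6 lists, 72.7, was above that of 99.8% of the 3608 genome tiles of 600 kb with a peak in every list, whose median was 46.1. Of its 91 peaks over the 6 lists, 36.3% lay above percentile 90, against 10.1% of all peaks.

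The 3 tallest regions in all lists, at percentile 96.8 or more in every library, lay within 119 kb, from 88673558 to 88792135. Region 17 (chromosome 4 from 88688653 to 88728550) was the tallest by mean percentile, at 63, 73 and 71 steps in the WT lists and 59, 62 and 39 in the Cgas_KO lists. Its percentiles were 97.2, 98.3 and 97.8 in WT and 98.6, 98.8 and 98.4 in Cgas_KO. All Cgas_KO libraries were above all WT libraries on this scale, as at 9.4% of regions in all 6 lists, but the limma adjusted p was 0.730. On the log2 scale the difference was -0.00490 (SE 0.22), so no direction is given for it. This region was also broad, with peaks covering 32.9, 33.3 and 34.4 kb of it in WT and 36.8, 36.6 and 34.7 kb in Cgas_KO. Its widest peak was 22.3 to 36.8 kb wide, while peaks of 20 kb or more made up 0.0631% to 0.238% of a list.

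Region 16 (chromosome 4 from 88673558 to 88686883) lay beside it, at 85, 51 and 69 steps in the WT lists and 72, 40 and 37 in the Cgas_KO lists. Its percentiles of 96.8 to 98.4 in WT and 96.9 to 99.1 in Cgas_KO overlapped (limma adjusted p = 0.889). Region 24 (chromosome 4 from 88781254 to 88792135) reached 63, 60 and 62 steps in the WT lists and 45, 61 and 28 in the Cgas_KO lists, at overlapping percentiles of 97.2 to 97.6 and 96.8 to 98.7 (limma adjusted p = 0.918). In steps, Cgas_KO replicate 3 was the lowest of the 6 libraries at each of these 3 regions, and its median peak was also the lowest, at 11 steps against 13 or 14 in the other lists. The part of this library in the heights was not tested.

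The remaining regions in all lists, 6 and 13, were lower. Region 6 (chromosome 4 from 88466247 to 88470527) reached 44, 29 and 33 steps in the WT lists and 27, 20 and 23 in the Cgas_KO lists. Region 13 (chromosome 4 from 88611000 to 88618699) reached 29, 25 and 43 steps in the WT lists and 17, 26 and 20 in the Cgas_KO lists. Percentiles, 81.5 to 94.6 at region 6 and 71.6 to 94.5 at region 13, overlapped between the genotypes at both, and the limma adjusted p-values were 0.886 and 0.851. Between these 2 regions, 69.1 kb from 88470528 to 88539640 held no peak in any list.

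The window of Ifnar2, Ifnar1 and Ifngr2, the receptor genes, had the lowest peaks of the 5 windows by mean percentile. There were 7, 10 and 11 peaks in WT and 10, 17 and 11 in Cgas_KO (9.33 ± 2.08 against 12.7 ± 3.79, SD, n = 3; p = 0.5 by exact permutation), with overlap. The 11 peaks per list on average were above the mean of 93% of the 6423 genome tiles of 400 kb, so the window was not short of peaks. They took up 9.25% ± 3.60 of it for WT and 10.1% ± 3.21 for Cgas_KO (SD, n = 3; p = 0.6 by exact permutation). Their mean height percentile was 41.9, 34.5 and 41.0 in WT and 46.1, 47.5 and 37.9 in Cgas_KO (p = 0.3 by exact permutation, n = 3). It was the lowest of the 5 windows in 6 of 6 libraries, though within the range of genome tiles of 400 kb, of which 31.6% were lower. Of its 66 peaks over the 6 lists, 0 lay above percentile 90, against 10.1% of all peaks. Under percentile 50 lay 53.0% of them, against 49.0% of all peaks. This ranking of windows was noted after the values were seen and was not tested.

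The 1 region of this window in all 6 lists was region 29 (chromosome 16 from 91434643 to 91447471), near its upper end. The WT libraries reached 16, 27 and 15 steps and the Cgas_KO libraries 18, 17 and 14. WT replicate 2 was the highest at percentile 87.9, the other WT libraries the lowest at 60.3 and 57.9, and the Cgas_KO libraries lay between at 75.6, 71.8 and 75.9 (limma adjusted p = 0.915). Regions 15 and 21 were called in 5 lists each. Region 21 (91329042 to 91338335) reached percentiles 17.4, 51.9 and 11.1 in WT and 66.7 and 78.9 in Cgas_KO replicates 1 and 2, and had no peak in replicate 3. It too was picked out after its values were seen. The longest stretch with no peak in any list was 56.8 kb, from 91091059 to 91147819.

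**Figure D3:**
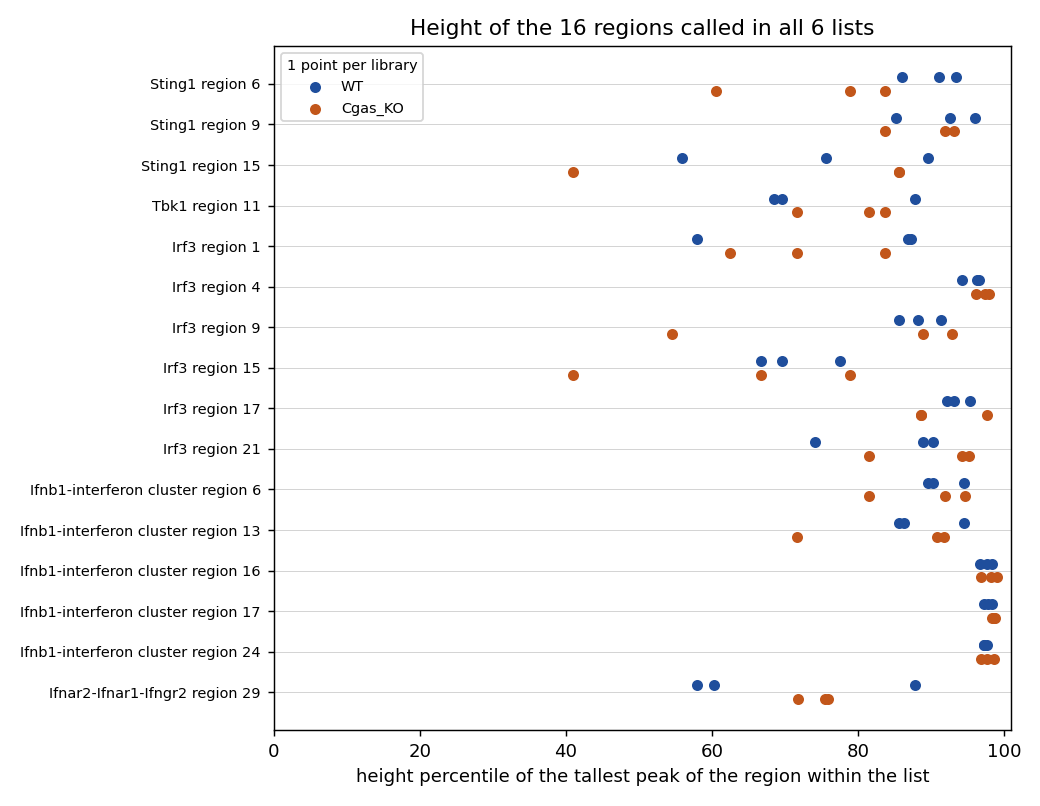
Height percentile within the list (horizontal axis) of the tallest peak of each of the 16 regions called in all 6 lists (vertical axis); 1 point per library, WT above Cgas_KO in each row. The groups separate at Sting1 region 6, lower in Cgas_KO, and by a small margin at region 17 of the interferon window, higher in Cgas_KO on this scale but not on the log2 scale.

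Over the 16 regions, 8 ranked higher and 8 lower in Cgas_KO, with a median difference in normal score of -0.05, against -0.01 over all 4896 regions. None of the 16 passed the limma test at an adjusted p of 0.05, and 0% of the 4896 did. At an unadjusted p under 0.05 there was 1 of 16, or 6.25%, against 9.42% of all regions.

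Whether the libraries placed their maximum at the same point was asked with the summit, the midpoint of the stretch of maximum signal in the tallest peak of a region. At Irf3 region 4 the 6 summits lay within 107 bp. At region 24 of the interferon window they lay within 222 bp and at Tbk1 region 11 within 226 bp. These 3 of 16 regions (18.8%) had every summit within 200 bp of their median, against 27.9% of all regions in 6 lists. At Sting1 region 6 the summits lay within 423 bp. Other regions had summits spread much wider, over 12190 bp at Sting1 region 15 and 16329 bp at Irf3 region 15. The widest spread of the 16 was 23354.5 bp, at the broad region 17 of the interferon window. The median spread was 3228 bp for the 16 regions and 696 bp for all 4896, while the regions themselves were also longer, with a median of 11751 bp against 7342 bp.

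**Figure D4:**
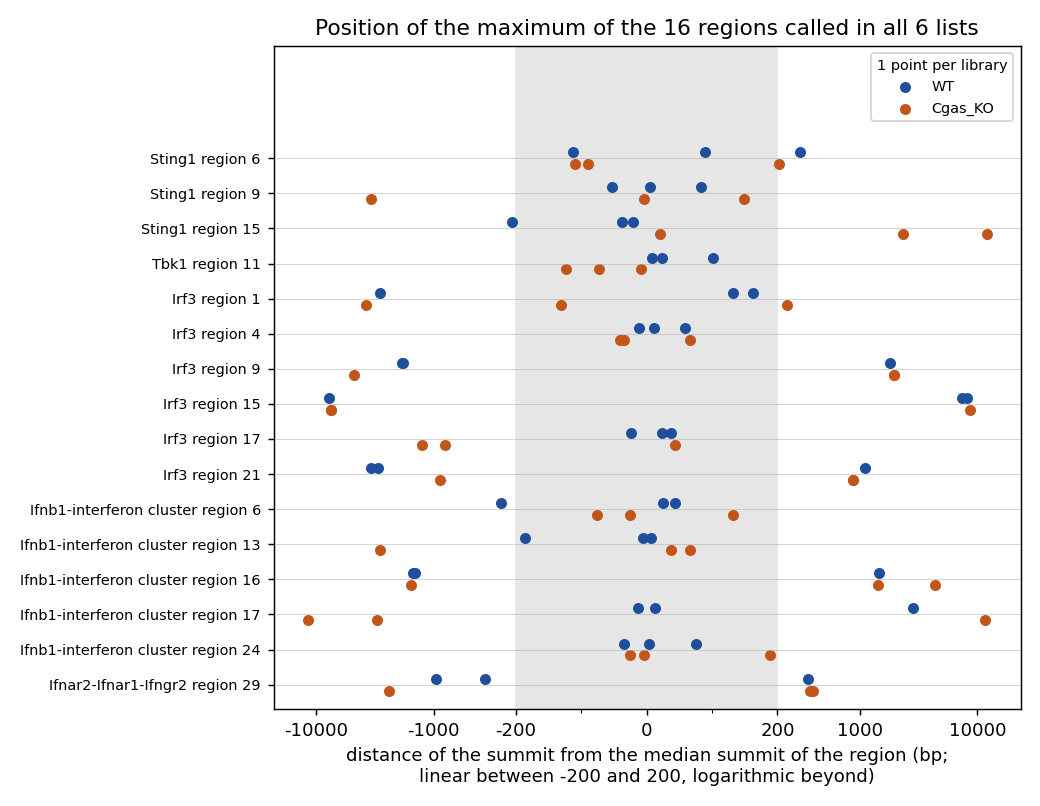
Distance of the summit in each library from the median summit of the region, in bp (horizontal axis, linear within 200 bp and logarithmic beyond), for the 16 regions called in all 6 lists; the grey band spans 200 bp on either side. All 6 points fall in the band at Tbk1 region 11, Irf3 region 4 and region 24 of the interferon window.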

How the data were processed

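CTCF CUT&RUN peak lists of 3 WT and 3 Cgas_KO libraries were grouped by labelled genotype. Bowtie2 and SEACR 1.3 were used, per the submitters' processing notes, which list mm10 and mm39; the sequence names in the lists belong to mm39. Peaks were called per library. The authors deposited signal values for each peak, a total and a maximum. Their threshold, scaling and control, if any, were not given in the sources used here. With read depth unknown, counting intervals were left out.

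Positions are counted from 1. Peaks on chromosomes 1 to 19, X and Y were merged at 1 bp overlap. Maxima under 200 steps were whole multiples of a step within 0.01 step for 100% of peaks. Locus values were compared with two-sided exact permutation tests (20 assignments, 15 tests, Benjamini-Hochberg), and relative heights by limma 3.58.1 under R 4.3.3 (normal scores of ranks), a fit tested on simulated data. Genome tiles of the window lengths gave the background. Scripts ran in Python 3.11.15 with pandas 2.3.3, numpy 2.4.6, scipy 1.17.1 and matplotlib 3.10.9.

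The members and lists were chosen with earlier results of these data known. Named regions were all those in 6 lists (per window the 2 tallest in full) and any in 1 genotype only or past the limma threshold. Other pathway genes and cell type markers were to be placed with an annotation of the build of the lists, and were not analysed here. Alternatives were midpoints in the window, lists shortened to the length of the shortest, the top 50% by total signal, total signal, medians, regions in place of peaks, log2 heights, 50% coverage, merging within 500 bp, 2 of 3 lists, leaving out each library and a replicate block. Regions in place of peaks were added after the data were examined.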

Additional observations from a re-analysis of the deposited data

How the results depend on the processing

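None of the 15 window comparisons could pass 0.05 with 3 libraries against 3, and neither could any of their 9 to 12 alternatives each. Only the differences themselves are therefore compared. Differences are Cgas_KO minus WT. For peaks, the difference of 0 at Tbk1 became -0.33 with lists shortened to the length of the shortest and with regions in place of peaks, and 1.33 in the top 50% by total signal. In the interferon window the difference of -1.67 became 0 in that top 50% and with regions in place of peaks. Leaving out each library gave -2 to 1 at Tbk1, -1.33 to 0.67 at Irf3, where it turned without Cgas_KO replicate 3, -2 to -1 in the interferon window (-1 without Cgas_KO replicate 2), 0.17 (without Cgas_KO replicate 1) to 3.17 at Sting1 and 1.17 (without Cgas_KO replicate 2) to 4.67 at Ifnar2-Ifnar1-Ifngr2. For covered length (percentage points), Tbk1 turned to 1.36 in that top 50%, and leaving out each library gave -3.34 to 2.79 at Sting1, -2.37 to 0.757 at Tbk1, -4.87 to 2.74 at Irf3 and -1.001 to 2.84 at Ifnar2-Ifnar1-Ifngr2. For the height percentile, Sting1 turned to 1.81 with lists so shortened and 0.314 with medians, Tbk1 to -3.29 in the top 50%, and with total signal Irf3 turned to -1.10 and the interferon window to 5.07. Leaving out each library gave -6.21 to 3.74 at Sting1, 7.01 to 19.6 at Tbk1, -0.315 to 6.11 at Irf3, -2.87 to 0.668 in the interferon window and 2.36 to 7.61 at Ifnar2-Ifnar1-Ifngr2. The cause was not tested.

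Regions of 1 genotype only, 0 for both, numbered 2 for WT and 4 for Cgas_KO with 2 of 3 lists, and 2 for Cgas_KO at 50% coverage (Tbk1 region 5 and interferon region 14, both called in 2 WT lists at 1 bp). They numbered 0 to 2 for WT and 0 to 3 for Cgas_KO when a library was left out, which asks for fewer lists. These counts are of 117 regions. Of all 94951 regions, 359 were of WT only and 198 of Cgas_KO only at 50% coverage. With a library left out, 652 to 1239 of them were of WT only and 505 to 1276 of Cgas_KO only. Limma called 1 region of the genome on log2 heights and 0 in the other alternatives, none of them in the windows. Regions with an unadjusted limma p under 0.05, 461 as reported, numbered 897 on log2 heights and 87 at 50% coverage, where 608 regions were tested. Sting1 region 6 stayed lower in Cgas_KO in the 9 alternatives that kept the same regions, at -1.08 to -0.63 when a library was left out. Among these alternatives, the replicate block leaves the difference at -0.88 by design and could not turn it (limma adjusted p = 0.571). On log2 heights 4 regions turned, interferon regions 16 (-0.10), 17 (-0.0049) and 24 (-0.14) and Irf3 region 15 (0.014). With total signal 7 turned, Ifnar2-Ifnar1-Ifngr2 region 29 (-0.098), Sting1 region 15 (-0.60), interferon regions 6 (0.043) and 13 (0.40) and Irf3 regions 1 (0.65), 15 (0.034) and 17 (0.15). Leaving out a library turned 11 regions: Ifnar2-Ifnar1-Ifngr2 region 29 (-0.068 to 0.60), interferon regions 6 (-0.37 to 0.11), 13 (-0.44 to 0.097), 16 (-0.040 to 0.29) and 24 (-0.066 to 0.22), Irf3 regions 9 (-0.73 to 0.14), 15 (-0.45 to 0.051) and 17 (-0.49 to 0.069), Sting1 regions 9 (-0.46 to 0.024) and 15 (-0.37 to 0.47) and Tbk1 region 11 (-0.055 to 0.42).

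Same-numbered libraries did not deviate together in relative height (correlations of -0.0169 to -0.0129). Relative heights are ranks within a list and cannot show a library-wide effect. Whether same-numbered libraries shared a batch was therefore not tested, and the labels do not state how replicates were numbered. With the replicate number as a block limma called 0 regions (422 before adjustment). The interferon window's difference of -1.67 peaks then had an exact sign-flip p of 0.25, the smallest that 3 pairs can give.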
